A study of Rattus norvegicus with 16 samples.

Results

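The cytosolic ribosomal proteins are the structural proteins of the ribosome that translates nuclear-encoded mRNAs, and their mRNAs were measured here in the rat diencephalon, the part of the forebrain that holds the thalamus and the hypothalamus, after dietary zinc deficiency and after recovery from it. A gene was taken as a member when a probe set carried its symbol alone and that symbol followed the naming of the small subunit proteins (Rps, Rpsa), the large subunit proteins (Rpl) or the stalk proteins (Rplp). Where a gene had several such probe sets, the one with the highest mean signal stood for it. This gave 44 genes, 14 of the small and 30 of the large subunit, of the 14217 genes that a probe set names alone. Of these, 40 (13 small, 27 large subunit) were bright enough to be tested. For 33 further probe sets the annotation lists a ribosomal protein gene together with other genes. They are given only as counts, since their signal cannot be assigned to 1 gene.

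All rats were male Sprague-Dawley, individually housed, and entered the experiment at 5 weeks of age, after a week on the zinc-sufficient diet. ZR rats had 10 days of food holding 0.6 mg of zinc per kg and then 6 days of 13 g daily of food holding 30 mg per kg, whereas ZRPF rats were pair-fed the 30 mg per kg food for those 10 days and then had the same 13 g daily for 6 days. ZD rats were sampled after 10 days of the 0.6 mg per kg food, and PF rats after 10 days of pair-feeding with the 30 mg per kg food. Each group is represented by 4 rats with 1 array each, chosen by the submitters from 9 (ZR, ZD) or 6 (ZRPF, PF) as rats near their group's average in body weight, blood zinc and salt preference, so the spread between arrays is that of selected animals. Every rat had also been offered 300 mM NaCl in a bottle test of preference, and rats of ZR and ZRPF with atypical preference during the first 10 days had been dropped. Food intake was matched within ZD and PF and within ZR and ZRPF. The 10-day and the 16-day groups belong to separate experiments, so day, age and experiment cannot be told apart between them.

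A ribosome joins a small subunit, which reads the mRNA, to a large subunit, which makes the peptide bond, and each ribosomal protein is needed in about equal number with the others. In mammals the mRNAs of these proteins begin with a cytosine and a run of pyrimidines, the terminal oligopyrimidine (TOP) motif, through which the growth kinase complex mTORC1 controls their translation. Several ribosomal proteins bind zinc, and in bacteria ribosomes are counted among the stores of cellular zinc.

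The annotated start sites are shown for the 5 members that passed the test in any comparison (Rps15, Rps24, Rps27l, Rpl24, Rpl35a) and for Rpl4 and Rps6, whose values in each rat are also given, because the pyrimidine run is the feature the family is known for. Each line gives 10 bases before the start and 20 from it, on the transcribed strand, from RefSeq on GRCr8 (the first start listed for the gene). Capitals mark the longest run of C and T near the start, as far as it lies within these bases.
Rps15 (chr7:10068096-10068125, minus strand): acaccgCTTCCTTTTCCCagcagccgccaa
Rps24 (chr16:96507-96536, plus strand): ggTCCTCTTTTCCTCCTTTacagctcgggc
Rpl35a (chr11:81235002-81235031, minus strand): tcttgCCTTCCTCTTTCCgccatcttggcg
Rpl4 (chr8:73566467-73566496, plus strand): TCTTCCTTTTCCTgtgggagcagccgggta
Rps6 (chr5:106420521-106420550, minus strand): CTCCTaggcggtcggctgtgtcaagatgaa
Rpl24 (chr11:58128386-58128415, minus strand): tagggaggagaTTCTCTaccctataaggtg
Rps27l (chr8:76443648-76443677, plus strand): ttcatttgtcattatttgtggtgtccagag
Counted also beyond the printed bases, the longest runs span 12 bases in Rps15, 17 in Rps24, 13 in Rpl35a and 14 in Rpl4. They span 6 in Rpl24, 6 in Rps6 and 3 in Rps27l, which is shown without capitals. A start sequence was found for 37 of the 44 members. A C at the annotated start, followed by 4 or more pyrimidines, stood in 11 of the 37 (29.7%), against 2.63% of 33469 promoters in the table, and a run of 8 or more pyrimidines within 15 bases of the start in 26 of 37 (70.3%), against 17.1%. The letters C and T were searched on the transcribed strand only. A start that is annotated a few bases off moves the motif, so these shares describe the annotation and not the start in diencephalon.

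The ribosomal protein probe sets were among the brightest on the arrays. Of the 40 tested members, 38 had a mean log2 signal of 11 or more over the 16 arrays, where the median probe set stood at 7.35. The 2 dim members just above that limit were Rps27l, at 7.52, and Rpl39, a small protein of the peptide exit tunnel, at 8.06. The 4 members below it, which were not tested, were Rpl28 (6.06), Rps13 (5.65), Rpl30 (5.09) and Rpl3l (4.05), the last a paralogue of Rpl3 known from striated muscle. Each of these rests on 1 probe set, so a dim signal cannot be told apart from a weak probe set.

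A trimmed mean lay between 500.13 and 500.15 on every array, which describes the scaling of the values and not how alike the arrays were. Correlations between arrays over all tested probe sets ran from 0.952 to 0.987. All 8 hypothalamus and all 8 thalamus markers were bright enough to be tested, against 1 of 6 markers of cerebral cortex and hippocampus. The mean level of the choroid plexus markers (5 of 9 tested) ranged more widely, between -0.97 and 1.52 on the log2 scale about its own mean. The signal ratio of the 3′ over the 5′ beta-actin control probe sets, a measure of RNA or labelling length, was 4.15 to 4.59 in ZR and 4.14 to 5.59 in ZRPF, against 2.59 to 3.19 in ZD and 2.82 to 3.31 in PF, so the 16-day arrays and the 10-day arrays did not overlap. In pieces of whole tissue, fewer cells of a type and less RNA per cell cannot be told apart.

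**Figure D1:**
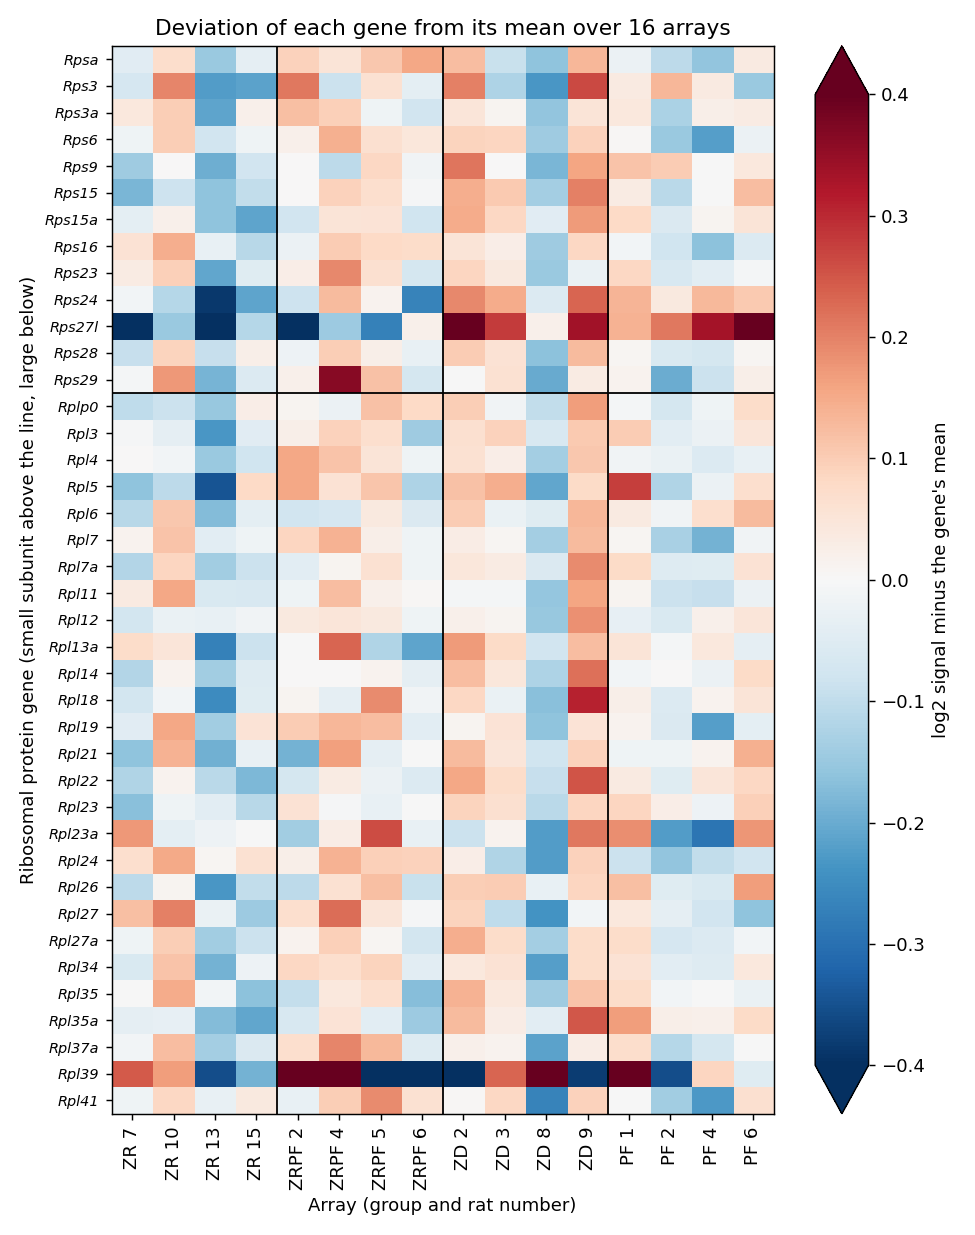
Log2 signal of each of the 40 tested ribosomal protein genes (rows, small subunit above the line) on each of 16 arrays (columns: ZR, ZRPF, ZD, PF, 4 rats each), as the deviation from the gene's own mean over all arrays. Columns rather than rows carry the pattern: ZR 13 and ZD 8 are low for nearly all genes and ZD 9 is high. Colours end at ±0.4, which Rps27l and Rpl39 pass on some arrays.

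The members moved together from rat to rat within a group. Over the 16 arrays, after each group's mean was removed, the median correlation between 2 of the 38 bright members was 0.64, against 0.19 between 2 of the 850 other probe sets at log2 12 or above. Genes on 1 array share its RNA and its scaling, so this is a description with no test. The correlation of a member with the mean of the other members had a median of 0.80, and ran from 0.56 (Rps3) to 0.94 (Rpl37a). For the 850 other bright probe sets the median correlation with the same mean was 0.38, and for all tested probe sets that are no member it was -0.02. The 98th percentile of each array correlated at 0.77 with the member mean, and the mean of the 33 probe sets naming several genes at 0.97.

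Single rats carried this shared movement. The mean deviation of the 40 members was -0.048, 0.055, -0.160 and -0.068 in rats ZR 7, 10, 13 and 15, and 0.011, 0.087, 0.034 and -0.047 in rats ZRPF 2, 4, 5 and 6. It was 0.083, 0.043, -0.121 and 0.122 in rats ZD 2, 3, 8 and 9, and 0.068, -0.060, -0.039 and 0.039 in rats PF 1, 2, 4 and 6. In rat ZR 13 only 1 member of 40 was above its own mean, and in rat ZD 8 only 2, whereas 37 were above it in rat ZD 9. The widest spread was thus between rats on the same deficient diet, and all 4 groups overlapped. Between rats of a group a member's signal varied by a median SD of 0.10 on the log2 scale, against 0.10 for the 850 other bright probe sets and 0.15 for all tested probe sets. Among the 38 bright members Rpl23 varied least (0.07) and Rpl23a most (0.18), and the dim Rpl39 reached 0.47.

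**Figure D2:**
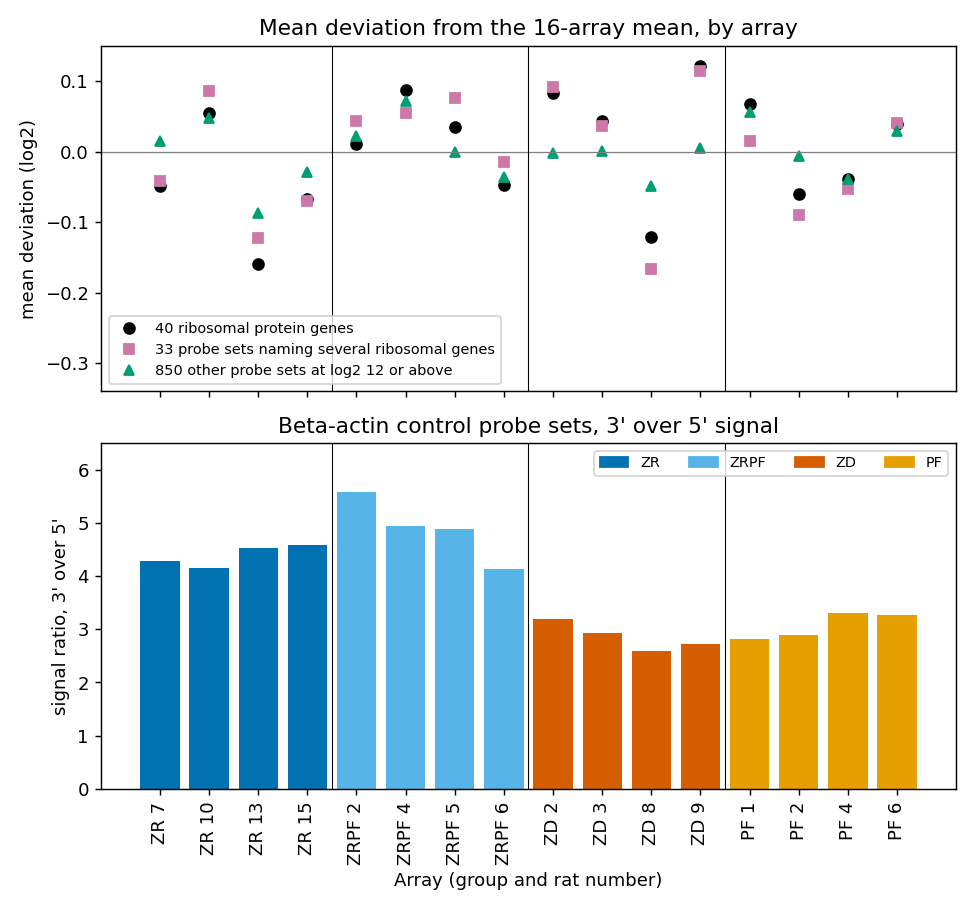
Top: mean deviation (log2) on each array of the 40 ribosomal protein genes, of 33 probe sets that name several genes including a ribosomal protein gene, and of 850 other bright probe sets. Bottom: signal ratio of the 3′ over the 5′ beta-actin control probe sets per array, which is 4.14 or more on all ZR and ZRPF arrays and 3.31 or less on all ZD and PF arrays.

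Zinc deficiency as such is addressed by ZD against PF, and no ribosomal protein gene passed the test (limma on log2 signals, Benjamini-Hochberg adjusted p under 0.05 over all 15521 probe sets tested). Over all probe sets 0 were called (0%), and at an unadjusted p under 0.05 there were 0 members, against 1220 probe sets (7.86%). Higher in ZD were 30 of 40 members (52.5% of all probe sets), with a median log2 change of 0.03 for the members and 0.02 for all 9278 genes tested. Changes ran from -0.13 (Rpl39) to 0.13 (Rps6), and the groups overlapped for all 40 members (4.19% of all probe sets had no overlap). This tilt rested on single rats and on the scaling: 39 of 40 were higher with a median of 0.09 without rat ZD 8, 20 of 40 with a median of 0.00 without rat ZD 9, and 18 of 40 when arrays were centred on their medians. Without rat PF 1 or PF 6 the median was 0.05 and 0.06, and without rat PF 2 it was 0.02.

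Markers of several cell types and regions also differed between ZD and PF, in both directions, and none was called by limma. All 7 tested markers of meninges and mural cells (of 8 listed) were higher, with a median of 0.48 and 5 at an unadjusted p under 0.05, and their mean level was -0.11 to 0.86 in ZD and -0.19 to 0.01 in PF. All 6 endothelium markers were higher (median 0.19), at a mean level of 0.07 to 0.25 in ZD and -0.16 to 0.05 in PF. Higher too were all 5 tested choroid plexus markers of 9 listed (median 0.46, mean level -0.50 to 0.80 in ZD and -0.97 to -0.48 in PF) and all 4 tested markers of ependyma and tanycytes of 6 listed (median 0.28, mean level -0.03 to 0.30 in ZD and -0.38 to -0.02 in PF). Of the microglia markers 4 of 5 were higher (median 0.26, 3 at an unadjusted p under 0.05). Lower were 7 of 8 thalamus markers (median -0.14), 4 of 5 neuron markers (-0.05) and 4 of 5 astrocyte markers (-0.08). Hypothalamus markers (5 of 8 higher, 0.04) and oligodendrocyte markers (3 of 5 lower, -0.01) were split. The part of all these markers in the ribosomal protein values was not tested.

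The smallest p in ZD against PF belonged to Rps6, the small subunit protein that S6 kinases phosphorylate. Its signal was 10735, 10725, 9150 and 10765 in ZD rats 2, 3, 8 and 9, and 10129, 9118, 8674 and 9942 in PF rats 1, 2, 4 and 6. Rats ZD 2, 3 and 9 lay above all PF rats and rat ZD 8 lay among them. The log2 change was 0.13 ± 0.07 (SE, n = 4 rats per group, adjusted p = 0.67 in limma). Rpl7 (0.09), Rps16 (0.08) and Rps15a (0.07) followed, with adjusted p between 0.78 and 0.82.

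The zinc-binding members showed no change past the test between ZD and PF. Rps29, a zinc-finger protein of the small subunit, had 18320, 19132, 15942 and 18766 in ZD rats and 18533, 15985, 17267 and 18616 in PF rats, a log2 change of 0.03 ± 0.09 (SE). Both groups spanned nearly the same range. Rpl37a, a zinc-finger protein of the large subunit, differed by -0.01 ± 0.07 and Rps27l, a paralogue of the zinc-finger protein Rps27, by 0.00 ± 0.15, with adjusted p between 0.95 and 0.998 for the 3 genes in limma. Under other scalings these small differences changed sign. The remaining zinc-binding ribosomal proteins of the list have no probe set of their own among the members.

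Rpl5 and Rpl11, which bind the 5S ribosomal RNA and can hold the p53 inhibitor Mdm2, differed by -0.02 ± 0.10 and 0.05 ± 0.07 between ZD and PF. Rplp0, the base of the ribosomal stalk, differed by 0.04 ± 0.06, and Rpsa, a small subunit protein also known as the laminin receptor precursor, by 0.06 ± 0.07 (SE, adjusted p from 0.86 to 0.97 in limma).

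Recovery after deficiency is addressed by ZR against ZRPF, at equal age and equal ration. Most members were lower in ZR, by small amounts: 38 of 40 (51.7% of all probe sets), with a median log2 change of -0.07, against -0.01 for all genes tested. All 13 small subunit members were lower, with a median of -0.10, and 25 of 27 large subunit members, with a median of -0.06. No member passed the test, where 1 probe set in all was called (0.00644%), and 2 members had an unadjusted p under 0.05 (5.21% of all probe sets). The size of the tilt moved with the rat and the scaling: without rat ZR 13 the median was -0.04 with 32 of 40 lower, without rat ZR 10 it was -0.11 with 39 of 40 lower, without rat ZRPF 6 it was -0.10 with 40 of 40 lower, and after quantile normalization it was -0.02 with 27 of 40 lower. Of the 33 probe sets naming several genes 30 were lower (median -0.08), and of the 850 other bright probe sets 549 were lower (median -0.03). Lower without a call were also 6 of 7 markers of meninges and mural cells (median -0.16), 4 of 5 of choroid plexus (-0.24) and 3 of 4 of ependyma and tanycytes (-0.30), whose part was not tested, whereas 5 of 6 endothelium markers were higher (0.04).

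Rps15, a small subunit protein needed in human cells for the export of new small subunits from the nucleus, was the 1 member without overlap between ZR and ZRPF (1.58% of all probe sets were lower without overlap). Its signal was 6087, 6517, 6175 and 6458 in ZR rats 7, 10, 13 and 15, and 6918, 7373, 7241 and 6888 in ZRPF rats 2, 4, 5 and 6. All ZR rats lay below all ZRPF rats. The log2 change was -0.17 ± 0.07 (SE, n = 4 rats per group), with an adjusted p of 0.93 in limma over all probe sets, so it did not pass the test.

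Rpl4, a large subunit protein that lines the peptide exit tunnel, had 6967, 6905, 6278 and 6586 in ZR rats and 7753, 7531, 7205 and 6875 in ZRPF rats. The lowest ZRPF rat lay within the ZR range. The log2 change was -0.14 ± 0.06 (SE, adjusted p = 0.93 in limma). Rpsa (-0.14 ± 0.07), Rplp0 (-0.12 ± 0.06) and Rpl5 (-0.18 ± 0.10) stood close to it, and none passed. Other probe sets of Rpsa gave -0.12 and 0.06.

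The 3 zinc-binding members were also lower in ZR without passing, Rps29 by -0.13 ± 0.09, Rpl37a by -0.10 ± 0.07 and Rps27l by -0.18 ± 0.15 on the log2 scale (SE, adjusted p = 0.94 in limma for each). In Rps29 the single rat ZRPF 4, at 23576, stood above the other ZRPF rats, at 17456 to 19898, and the ZR rats, at 16116 to 20687. Rps6 differed by -0.07 ± 0.07, and Rpl11, by -0.02 ± 0.07, changed its sign with the scaling.

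**Figure D3:**
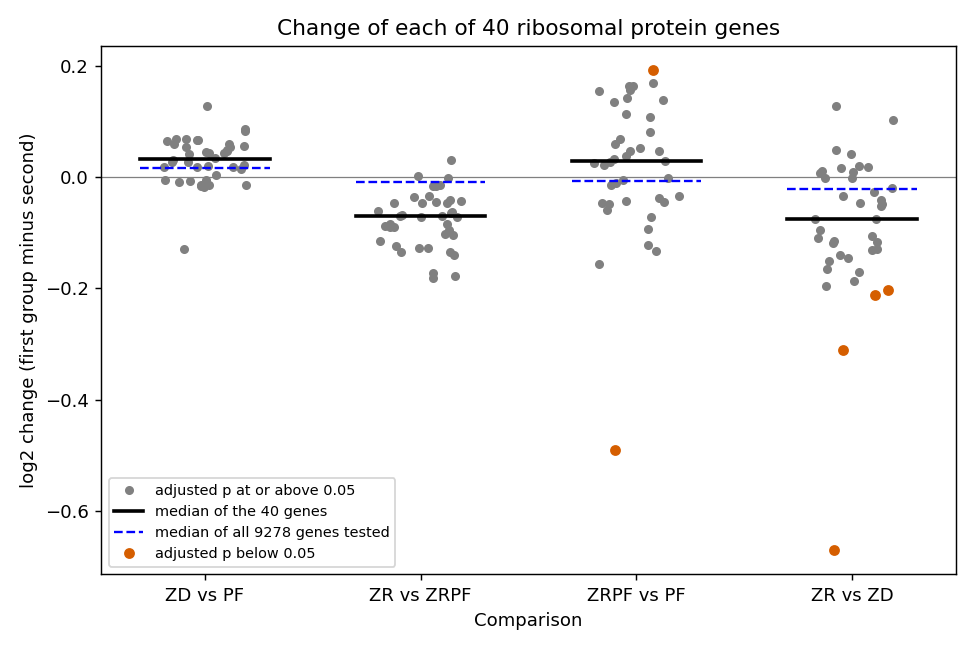
Log2 change of each of the 40 tested ribosomal protein genes (points) in 4 comparisons, first group minus second, with the median of the 40 (black line) and of all 9278 genes tested (dashed line). Filled orange points passed the test: none in ZD against PF and in ZR against ZRPF, 1 higher and 1 lower in ZRPF against PF, and 4 lower in ZR against ZD. Over all probe sets 9.5% were called higher and 6.15% lower in ZRPF against PF, and 8.18% lower in ZR against ZD.

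Whether recovery and deficiency differed in their effect was tested as (ZR minus ZRPF) minus (ZD minus PF). No member passed in limma, as no probe set did (0%), and 3 members had an unadjusted p under 0.05, against 1025 probe sets (6.6%). The difference was below 0 for 38 of 40 members (53.1% of all probe sets), with a median of -0.11, against -0.03 for all genes tested. It was -0.24 ± 0.10 for Rps15, -0.18 ± 0.08 for Rpl4, -0.20 ± 0.09 for Rps6 and -0.20 ± 0.10 for Rpsa (SE, log2, adjusted p = 0.75 for each). Other probe sets of Rpsa gave -0.15 and 0.08. The member median lay between -0.16, without rat ZD 8, and -0.08, without rat ZD 9, and was -0.05 after quantile normalization, with 33 of 40 below 0. Markers of several other cell types lay below 0 in the same test, none of them called: 7 of 7 of meninges and mural cells (median -0.63), 5 of 5 of choroid plexus (-0.84), 4 of 4 of ependyma and tanycytes (-0.52), 5 of 5 of microglia (-0.17) and 5 of 6 of endothelium (-0.12). Thalamus markers went the other way, with 6 of 8 above 0 (median 0.18). The part of all these markers in the ribosomal protein values was not tested.

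The later and older pair-fed rats were compared with the earlier ones as ZRPF against PF, where 2430 probe sets were called (15.7%). Among the members 1 was called higher (9.5% of all probe sets) and 1 lower (6.15%). At an unadjusted p under 0.05 there were 7 members (30.1% of all probe sets), so both counts lay below the share over all probe sets. The member median was 0.03, with 23 of 40 higher (49% of all probe sets), and it was -0.06 with 11 of 40 higher when arrays were centred on their medians, a scaling that also moved the calls over all probe sets to 975 higher and 2146 lower, against 1475 and 955. Groups without overlap were found for 3 members that were higher (12% of all probe sets), Rpl24, Rps6 and Rpsa, and for 1 that was lower (9.37%), Rps27l.

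Rpl24, a large subunit protein at the interface to the small subunit whose gene carries the Belly spot and tail mutation of mice, had 8116, 8797, 8531 and 8503 in ZRPF rats and 7523, 7154, 7460 and 7565 in PF rats. All ZRPF rats lay above all PF rats. It rose by 0.19 ± 0.06 on the log2 scale (SE, adjusted p = 0.044 in limma). The call was lost in all 8 fits that left out 1 rat (adjusted p 0.050 to 0.118), at a change of 0.17 to 0.21.

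Rps27l, a paralogue of Rps27 that p53 induces in human cells, had 138, 166, 153 and 186 in ZRPF rats and 203, 213, 232 and 254 in PF rats. All ZRPF rats lay below all PF rats, at signals around the limit for testing of 163. It fell by 0.49 on the log2 scale, with an SE of 0.15 and an adjusted p of 0.035 in limma, and the call was lost in 6 of 8 fits that left out 1 rat (adjusted p 0.030 to 0.098).

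Rps6 had 10248, 11141, 10546 and 10432 in ZRPF rats and 10129, 9118, 8674 and 9942 in PF rats, a log2 change of 0.16 ± 0.07 that did not pass (SE, adjusted p = 0.097 in limma). Rpsa had 5440, 5284, 5500 and 5675 in ZRPF rats and 5016, 4748, 4570 and 5230 in PF rats, a log2 change of 0.16 ± 0.07 (adjusted p = 0.12). In both the groups were apart by a narrow gap. A second probe set of Rpsa, which shares sequence with other transcripts by its suffix, gave -0.15 instead, with all ZRPF rats below all PF rats. Another, also with a shared-sequence suffix, gave -0.01. The direction of Rpsa thus depended on the probe set.

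ZR against ZD compares recovered rats on day 16 with deficient rats on day 10. The ZR rats are those of the recovery comparison and the ZD rats those of the deficiency comparison, so the values are not independent of the comparisons above. Over all probe sets 2692 were called (17.3%), and among the members 4 were lower (8.18% of all probe sets) and 0 higher (9.16%). With 30 of 40 members lower (51.1% of all probe sets), the median was -0.07, against -0.02 for all genes tested, and 9 members had an unadjusted p under 0.05 (31.3% of all probe sets). The count of members called lower thus lay near the share over all probe sets. The count of all member calls and the count at an unadjusted p under 0.05 lay below their shares. The median was larger in size with the 3′ over 5′ signal ratio of a control gene as a covariate, at -0.17 with that of Gapdh (37 of 40 lower) and -0.16 with that of beta-actin (33 of 40 lower). These fits called 786 and 17 of all probe sets. Neither ratio overlapped between ZR and ZD, so these fits cannot separate it from day, age or experiment. It was -0.12 without rat ZD 8 and -0.05 without rat ZR 13 or ZD 9. The count of member calls moved with single rats: it was 1 without rat ZD 2, ZD 9 or ZR 13, 2 without rat ZR 15 and 9 without rat ZD 8, in fits that called 13.1% to 16.7% of all probe sets. Among further probe sets of member genes, 1 of Rpsa fell by 0.30 (adjusted p = 0.0063 in limma) and 1 of Rpl3 by 0.77 (adjusted p = 0.041). Both share sequence with other transcripts by their suffix. That of Rpl3 was dim, at a mean log2 signal of 8.12 (SD 0.76) in ZR and 8.89 (SD 0.11) in ZD. The bright probe set of Rpl3 had 13.42 in ZR and 13.55 in ZD. Another of Rpsa gave 0.07 without passing.

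Rps27l had 114, 166, 125 and 170 in ZR rats and 265, 223, 186 and 232 in ZD rats. It was the 1 member without overlap, with all ZR rats below all ZD rats (9.94% of all probe sets were lower without overlap). It fell by 0.67 on the log2 scale, with an SE of 0.15 and an adjusted p of 0.0053 in limma, and passed in all 8 fits that left out 1 rat. Its level in ZR and ZRPF was thus below that in ZD and PF, whereas neither diet comparison at equal age passed. The mean log2 signal of Rps27l was 7.14 in ZR and 7.32 in ZRPF, below the limit for testing of 7.35. It was 7.81 in ZD and 7.81 in PF, so Rps27l came to be tested, at a mean of 7.52 over all arrays, through the 10-day arrays. The size of its fall therefore rests on ZR signals below that limit on average.

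Rps24, a small subunit protein whose gene is mutated in some patients with Diamond-Blackfan anaemia, had 9845, 9169, 7597 and 8560 in ZR rats and 11336, 11000, 9539 and 11651 in ZD rats. The groups overlapped through rats ZR 7 and ZD 8. It fell by 0.31 on the log2 scale, with an SE of 0.09 and an adjusted p of 0.020 in limma, and the call was lost in 3 of 8 fits that left out 1 rat (ZD 2, ZD 9 or ZR 13, adjusted p up to 0.066). A second probe set of the gene gave -0.11, with an adjusted p of 0.60.

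Rps15 had 6087, 6517, 6175 and 6458 in ZR rats and 7647, 7433, 6294 and 7952 in ZD rats. Only rat ZD 8 lay within the ZR range. It fell by 0.21 on the log2 scale, with an SE of 0.07 and an adjusted p of 0.039 in limma, and passed only when rat ZD 8 was left out among the 8 fits that left out 1 rat. Rpl35a, a large subunit protein whose gene is likewise mutated in Diamond-Blackfan anaemia, had 10630, 10673, 9668 and 9444 in ZR rats and 11906, 11142, 10593 and 12965 in ZD rats. Here too rat ZD 8 reached into the ZR range, and the other ZD rats lay above it. It fell by 0.20 on the log2 scale, with an SE of 0.07 and an adjusted p of 0.045 in limma, and the call was lost in 4 of 8 such fits (without ZD 2, ZD 9, ZR 13 or ZR 15).

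**Figure D4:**
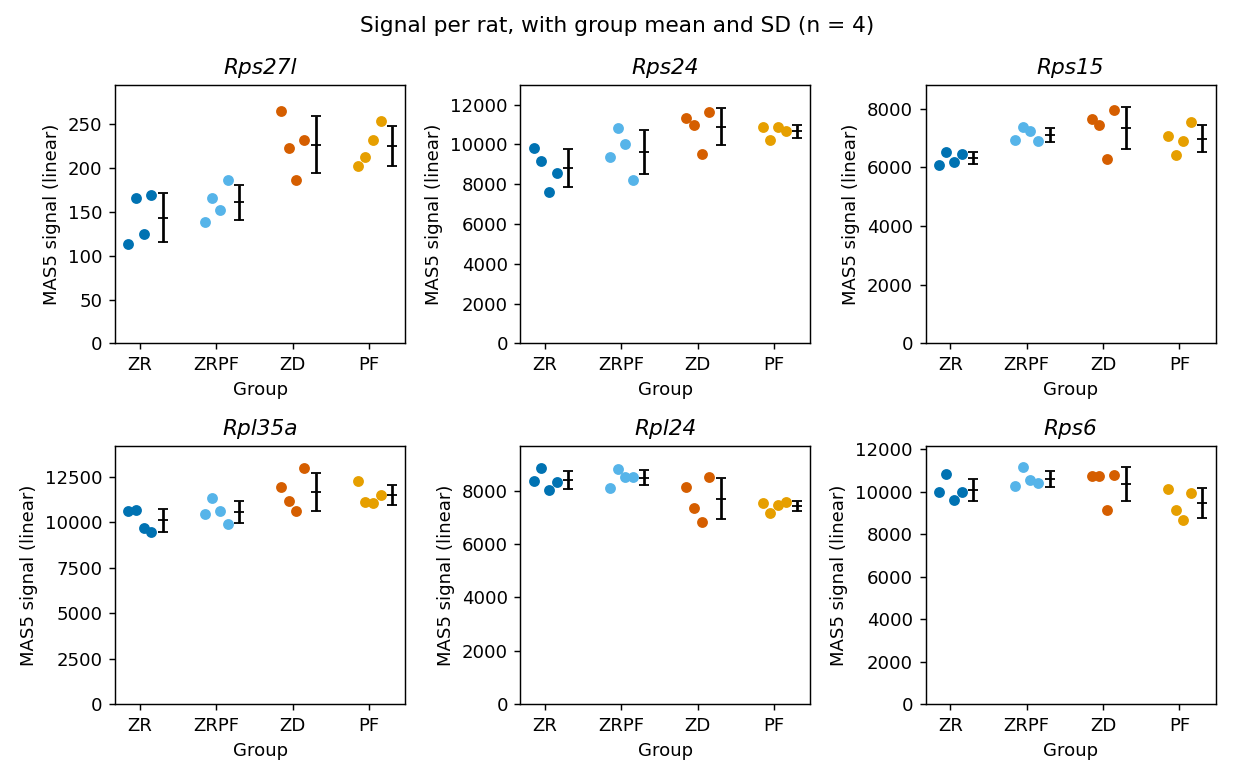
Linear MAS5 signal of 6 ribosomal protein genes in each rat (points) by group, with the group mean and SD beside them (n = 4 rats), axes starting at 0. Rps27l is lower in all ZR and ZRPF rats than in any PF rat and, in ZR, than in any ZD rat, and the other 5 genes differ by a small part of their level.

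Other measures moved between the same 16-day and 10-day arrays. The beta-actin 3′ over 5′ ratio did not overlap between them, and with it as a covariate, a choice made after seeing the data, none of the 40 members passed in ZRPF against PF or in ZR against ZD, while 7 and 17 probe sets did over all. Under that covariate Rps27l fell by 0.58 in ZRPF against PF and by 0.75 in ZR against ZD, against 0.49 and 0.67 without it. Since the ratio did not overlap between these arrays, that fit cannot separate it from day, age or experiment. The lost calls therefore do not show its part. The mean level of the hypothalamus markers was 0.09 to 0.18 in ZR and 0.18 to 0.26 in ZRPF, against -0.52 to 0.13 in ZD and -0.24 to -0.09 in PF. Of these 8 markers 3 were called higher in ZRPF against PF (9.5% of all probe sets) and 3 in ZR against ZD (9.16%). All 7 markers of meninges and mural cells were lower in ZR than in ZD (3 called), at a mean level of -0.40 to -0.06 in ZR and -0.11 to 0.86 in ZD, as were 5 of 6 endothelium markers (1 called) and 4 of 4 markers of ependyma and tanycytes (1 called). Lower calls in ZR against ZD made up 8.18% of all probe sets. Higher in ZRPF than in PF were 4 of 7 meningeal and mural markers (median 0.09) and 3 of 6 endothelium markers (-0.09), none called. Of ependyma and tanycytes 3 of 4 were higher there (0.30, 1 called higher, 9.5% of all probe sets). All 5 choroid plexus markers were higher in ZRPF than in PF (0.84), and 3 of 5 in ZR than in ZD (0.00), none called. Single markers of other types were called too. The part of these in the ribosomal protein results was not tested.

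Other genes that make, use or regulate ribosomes were grouped by function, in lists that share some genes, so their counts are not separate. In ZD against PF, in ZR against ZRPF and in the test of their difference no gene of these lists was called by limma. Their counts stand against 9.5% of all probe sets called higher and 6.15% lower in ZRPF against PF, and 9.16% higher and 8.18% lower in ZR against ZD. The lists were not tested against these shares, and several of their counts lie near them. Of 49 genes of ribosome biogenesis and RNA polymerase I, 4 were higher and 6 lower in ZRPF against PF, and 0 higher and 8 lower in ZR against ZD (medians -0.06 and -0.10). Taf1d, a subunit of the RNA polymerase I selectivity factor, fell by 0.74 in ZRPF against PF (adjusted p = 0.00049) and by 0.67 in ZR against ZD (adjusted p = 0.0011), and Ubtf, which opens the ribosomal RNA genes, rose by 0.36 in ZRPF against PF (adjusted p = 0.0047). Of 34 initiation factors 0 were higher and 4 lower in ZRPF against PF, and 0 higher and 7 lower in ZR against ZD (medians -0.06 and -0.08), among them Eif4a1, the helicase that unwinds the start of the mRNA, which fell by 0.43 in ZR against ZD (adjusted p = 0.0024).

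Of 13 elongation and termination factors 2 were higher and 1 lower in ZRPF against PF, and 0 higher and 2 lower in ZR against ZD (9.16% and 8.18% of all probe sets, and 9.5% and 6.15% in ZRPF against PF). Eef2, which moves the ribosome along the mRNA, rose by 0.33 (adjusted p = 0.0088), and Eef2k, the kinase that inhibits it, by 0.44 (adjusted p = 0.017), both in ZRPF against PF. The call of Eef2k was lost without rat PF 1 or ZRPF 2 (adjusted p = 0.057 for each), and its change was 0.14 with the beta-actin ratio as a covariate. Of 14 other genes with TOP mRNAs, which share the start motif of the ribosomal proteins, 2 were higher and 1 lower in ZRPF against PF, and 0 higher and 5 lower in ZR against ZD, with Eif3f down by 0.33 (adjusted p = 0.0047) and Eef1b2 by 0.19 (adjusted p = 0.013). Some of these TOP genes, among them Eef2, Eef1b2 and Eif3f, also stand in the elongation or initiation list, so their calls are counted in both. Of 28 genes of growth control, 3 were higher and 1 lower in ZRPF against PF, and 2 higher and 2 lower in ZR against ZD, near the shares over all probe sets. Sesn2, which restrains mTORC1 when leucine is short, rose by 0.47 in ZRPF against PF (adjusted p = 0.0048).

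The mitochondrial ribosomal proteins, which serve the separate ribosome of that organelle, are named by a similar scheme and were measured by 73 genes. None was called higher and 11 were called lower in ZRPF against PF (median -0.14, 6.15% of all probe sets called lower), and 1 was called higher and 16 lower in ZR against ZD (median -0.17, 8.18% of all probe sets called lower). Mrps17 fell by 0.34 in ZRPF against PF (adjusted p = 0.0015) and by 0.42 in ZR against ZD (adjusted p = 0.00029). Of 10 tested targets of p53, Rps27l itself not among them, 1 was higher and 0 lower in ZRPF against PF, and 1 was higher (Sesn2) and 1 lower (Gadd45a) in ZR against ZD, counts too small to set against the shares over all probe sets.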

How the data were processed

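RNA of individual diencephalons was labelled with a 3′ in vitro transcription kit and hybridised to Affymetrix rat arrays, per the labels' protocols. The deposited values are MAS5 signal intensity values on a linear scale, per the submitters' processing notes; the version and the target of scaling are not given in the sources used here, and in the files each array has a trimmed mean between 500.13 and 500.15. Probe sets were named from the platform annotation: 20826 of 31042 list 1 gene, 436 several and 9780 none. Members and gene lists were chosen with earlier results of these data known. Of the 44 members, 42 were matched to current records by gene ID.

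Intensities were taken as log2 with no further normalization. Probe sets with a mean log2 signal at or above the median (7.35, a signal of 163) were tested: 15521, for 9278 genes. A model of 4 groups was fitted to all 16 arrays with limma 3.58.1 in R 4.3.3 (lmFit, contrasts.fit, eBayes with an intensity trend), two-sided, with Benjamini-Hochberg adjustment over all tested probe sets at 0.05. The script was tested on simulated data. Named members were those past the threshold in a comparison, the smallest p up to 4 where fewer passed, and the stalk, 5S-binding and zinc-binding members with Rps6 and Rpsa in both diet comparisons; of each other list up to 2 genes per comparison. Annotated start sequences came from RefSeq (GRCr8). With 4 arrays per group, their number limits the precision. Alternatives changed the normalization, filter, offset, variance model, weights, covariates, probe set and arrays. Same-numbered PF and ZRPF rats correlated at 0.02 to 0.08 in their deviations from the group means, against -0.10 to 0.08 for unlike numbers, so numbers were not taken to pair rats.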

Additional observations from a re-analysis of the deposited data

Results flagged for a closer look

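In 68 sets of 4 rats (each member named, and the mean over the members, in each group), 2 had 1 rat far from the other 3 by Dixon's ratio, which chance gives in about 1 in 20 sets. Rps6 in rat ZD 8 stood at a log2 signal of 13.16, where the other ZD rats lay at 13.39. Rpl37a in rat ZD 8 stood at 13.44, where the other ZD rats lay between 13.67 and 13.69. Both are on the array on which 38 of 40 ribosomal protein genes were below their own mean. Without that rat Rps6 was 0.19 higher in ZD than in PF (adjusted p = 0.28 in limma) and Rpl37a 0.05 higher.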

How the results depend on the processing

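No alternative called a member in ZD against PF, in ZR against ZRPF or in their difference, and in those comparisons no member median moved by more than the spread of the array means. That spread, a pooled SD of 0.08, is wide beside the medians. The median still ran from -0.01 to 0.09 in ZD against PF, from -0.11 to -0.02 in ZR against ZRPF and from -0.16 to -0.05 in their difference. Over all probe sets ZR against ZRPF had 0 calls under quantile normalization, no filter, the 10348 brightest probe sets, no intensity trend, either control-ratio covariate and its own 8 arrays. ZRPF against PF had 771 calls with the Gapdh 3′ over 5′ ratio as a covariate, 7 with the beta-actin ratio and 1085 with the replicate number as a block, and ZR against ZD had 786 and 17 with the 2 ratios. Member calls in ZRPF against PF were 7 under quantile normalization (15.4% of all probe sets), 4 under 98th percentile scaling (14.7%), 1 under median centring (20.1%), the 10348 brightest probe sets (18%), no trend (14.7%) or the Gapdh ratio (4.97%), and 0 with no filter (7.92%), the beta-actin ratio (0.0451%) or the replicate block (6.99%). Rpl24 gave 0.20 (adjusted p = 0.14) and Rps27l -0.52 (adjusted p = 0.074) under that block, whose numbers did not pair the rats. No paired fit was possible for the other comparisons, which share at most 1 number. Member calls in ZR against ZD were 7 under quantile normalization (18.4% of all probe sets), 2 with no filter (8.31%), no trend (16.5%) or its own 8 arrays (12.5%), and 0 with the beta-actin ratio (0.11%). The member median in ZRPF against PF was -0.057 under median centring, -0.066 with the Gapdh ratio and -0.057 with the beta-actin ratio, and in ZR against ZD -0.17 and -0.16 with these ratios. Neither ratio overlapped between ZRPF and PF or between ZR and ZD, so fits with it cannot separate it from day, age or experiment. The 98th percentile scaling and the beta-actin covariate were chosen after seeing the data.

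With 1 rat left out, calls over all probe sets ran from 0 to 3 in ZD against PF, 0 to 9 in ZR against ZRPF (9 without rat ZRPF 6), 0 to 1 in their difference, 1681 to 2264 in ZRPF against PF and 2028 to 2588 in ZR against ZD. Member calls ran from 0 to 1 in ZRPF against PF and from 1 to 9 in ZR against ZD.

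Reversed signs were mostly of differences near 0. In ZD against PF they were Rps27l at -0.028 (quantile) and -0.040 (median centring), Rps29 at -0.0088 (median centring), Rpl37a at 0.0056 (quantile), 0.0064 (array weights), 0.010 (beta-actin ratio) and 0.0037 (98th percentile), Rpl5 at 0.011 (array weights) and 0.030 (beta-actin ratio), and Rpl7 at -0.026 (second probe set). In ZR against ZRPF they were Rpl11 at 0.028 (quantile), 0.00025 (median centring) and 0.0053 (array weights), and in ZRPF against PF Rpsa at -0.15 (second probe set). Leaving out 1 rat gave ranges across 0 in ZD against PF for Rpl5 (-0.075 to 0.062), Rps27l (-0.076 to 0.094), Rpl37a (-0.036 to 0.051), Rps29 (-0.011 to 0.093) and Rpl11 (-0.0084 to 0.095), and in ZR against ZRPF for Rpl11 (-0.061 to 0.014). The cause of these moves was not tested.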

Other observations

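Probe sets that list a ribosomal protein gene together with other genes were counted apart from the members. In ZRPF against PF 23 of these 33 were higher (median log2 change 0.05, 49% of all probe sets). By limma 2 were called higher (9.5% of all probe sets) and 0 lower (6.15%). In ZR against ZD 22 were lower (median -0.05, 51.1% of all probe sets), with 4 called lower (8.18%) and 0 higher (9.16%). These counts were not tested against the shares over all probe sets. Rpl7l1, a paralogue of Rpl7 whose symbol lies outside the naming rule, rose by 0.25 on the log2 scale in ZRPF against PF (SE 0.07, adjusted p = 0.021 in limma), and differed by 0.09 in ZD against PF and -0.04 in ZR against ZRPF without passing. The control probe set for the 5S ribosomal RNA, which Rpl5 and Rpl11 bind, had signals of 126 to 158 in ZR and 141 to 163 in ZRPF, and 137 to 194 in ZD and 165 to 177 in PF, and was not tested. These dim signals lie around the limit of 163 used for the other probe sets, so they were not read as levels of that RNA.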
